A study of Mus musculus with 8 samples.

Results

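The genes of the axon guidance families were followed in lung mesenchymal cells of injured and control mice. These are the semaphorins with their plexin and neuropilin receptors, the ephrins with the Eph receptors, the Slits with the Robo receptors, and the netrins with the Unc5 receptors. Members were chosen by gene symbol alone, from array rows that carry 1 gene, with the brightest row standing for each gene. That gave 71 members among 22180 genes tested. Of these, 36 encode ligands and 32 encode receptors. The other 3, Unc50, Unc5cl and Plxna4os1, matched only by their spelling and are not guidance receptors. They differed by between -0.15 and -0.07 in log2 units, and none passed the test. Ntn5, whose row also carries another gene's name, was not used.

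The mice were C57BL/6J animals 11 weeks old, kept in specific pathogen-free housing. One group had received bleomycin into the trachea and the other phosphate-buffered saline. Bleomycin is a DNA-breaking antibiotic used to provoke lung injury and fibrosis in mice. On day 10 after the instillation, cells lacking CD45, CD31 and EpCAM were sorted from whole lungs. The titles call them lung mesenchymal cells, which include fibroblasts, pericytes and smooth muscle. There were 4 bleomycin and 4 control samples, each on its own 1-colour oligonucleotide array. Precision rests on the 4 arrays of each group and on the spread of each gene among them. Nothing in the labels tells whether samples of a group came from separate animals, so p-values speak to the spread among these samples, and that spread may be technical. A single time point and a pooled gate mean that fewer cells of a type and less RNA per cell cannot be told apart.

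Guidance cues were named for steering growing nerve fibres, and the same proteins act on cell contact, movement and vessel growth outside the nervous system. Secreted semaphorins bind neuropilins, which signal together with plexins, while membrane-bound semaphorins bind plexins directly. Ephrins and Eph receptors both sit in membranes and signal in both directions when cells touch. Slits are secreted and bind Robo receptors, and netrins bind the Unc5 receptors as well as Dcc and neogenin. In the lung, fibroblasts, endothelium and epithelium all make members of these families.

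The sorted samples carried the defining mesenchymal genes. Pdgfra, a receptor of lung fibroblasts, averaged 12.15 ± 0.09 in bleomycin and 12.58 ± 0.05 in control samples (log2 intensity, mean ± SD, n = 4 each). Transcripts of endothelium and epithelium were present too. Pecam1, which encodes the CD31 used in the gate, averaged 8.56 ± 0.29 in bleomycin and 9.87 ± 0.55 in control samples. The alveolar epithelial marker Sftpc averaged 9.76 ± 0.61 in bleomycin and 12.08 ± 0.48 in control samples. Epcam, which encodes the EpCAM used in the gate, was dim, at 4.43 ± 0.37 in bleomycin and 4.99 ± 0.23 in control samples. It did not pass (limma, adjusted p = 0.0547). The endothelial list was lower in bleomycin, with 18 of 24 genes passing and none higher, and so was the alveolar epithelial list, with 16 of 20 lower. The summed endothelial signal ran from 12.41 to 12.82 in bleomycin and from 13.08 to 14.09 in control samples (log2). That of the alveolar list ran from 11.28 to 12.32 in bleomycin and from 13.20 to 14.15 in control samples. Of 9 airway epithelial markers 4 were lower, among them the secretory cell genes Scgb1a1, by -2.32, and Cyp2f2, by -2.45. Their summed signal ran from 9.58 to 10.76 in bleomycin and from 12.13 to 12.75 in control samples. Of 12 Schwann cell and nerve markers 3 were higher and none lower, namely S100b by 1.18, Tubb3 by 1.14 and Ngfr by 0.75. Their summed signal ran from 8.64 to 8.82 in bleomycin and from 8.47 to 8.56 in control samples. Sox10, which defines Schwann cells, averaged 5.24 ± 0.18 in bleomycin and 5.24 ± 0.07 in control samples. Smooth muscle markers rose in 8 of 9 cases, and pericyte markers rose in 4 and fell in 3 of 11. The pericyte marker that rose most, Postn by 1.86, is also on the list of fibrotic fibroblast markers given below. Of 17 leukocyte markers 6 rose and 1 fell, and of 10 mesothelial markers 2 fell. Among the controls, replicates 1 and 2 stood apart, with mean endothelial levels of 8.78 and 8.90 against 7.99 and 7.86 on replicates 3 and 4. On the bleomycin arrays that level was 7.32, 7.37, 7.08 and 7.57, with no such split. Over all genes, however, replicates 1 and 2 deviated together from their group means in both groups, and so did replicates 3 and 4. Correlations of these deviations between a bleomycin and a control array were 0.06 to 0.13 within these pairs and -0.14 to -0.07 across them. The labels name no batch. A fit that takes these 2 replicate pairs as blocks is called pair-blocked below. Those blocks were chosen from the deviations of these same arrays. A pass in that fit alone is thus no independent support. Results that rest on control replicates 1 and 2 are given with and without them, and those fits set control replicates 3 and 4 against all 4 bleomycin arrays. No guidance gene followed here is on any of these lists.

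Guidance genes moved in both directions. By limma with Benjamini-Hochberg adjustment over all genes, 12 of the 71 members were higher in bleomycin and 11 lower, or 32.4% in all, against 17.4% of all genes tested. Of all genes, 9.12% were higher and 8.24% lower. Differences of at least 1 log2 unit, or 2-fold, were reached by 3 higher and 4 lower members. Of all genes, 1.98% were higher and 1.27% lower by as much, or 3.26% in all. The share called depends on brightness. When the fit was limited to the brighter 50% of genes, 25 of 52 members passed (48.1%), against 37.2% of those genes. The groups did not overlap in 25 members, against 23.5% of all genes. The median difference of the members was 0.04, beside 0.03 over all genes, and with each array centred on its median it was -0.01. Centring gave 10 higher and 12 lower members, and quantile normalization gave 16 and 9, with a median of 0.07. Over all genes 52.5% of the calls were higher as deposited, 41.2% after centring and 61.8% after quantile normalization. Without control replicates 1 and 2, 11 of the 23 members still passed, 6 of them higher and 5 lower, and 9.91% of all genes were called. All 23 kept their direction there.

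**Figure D1:**
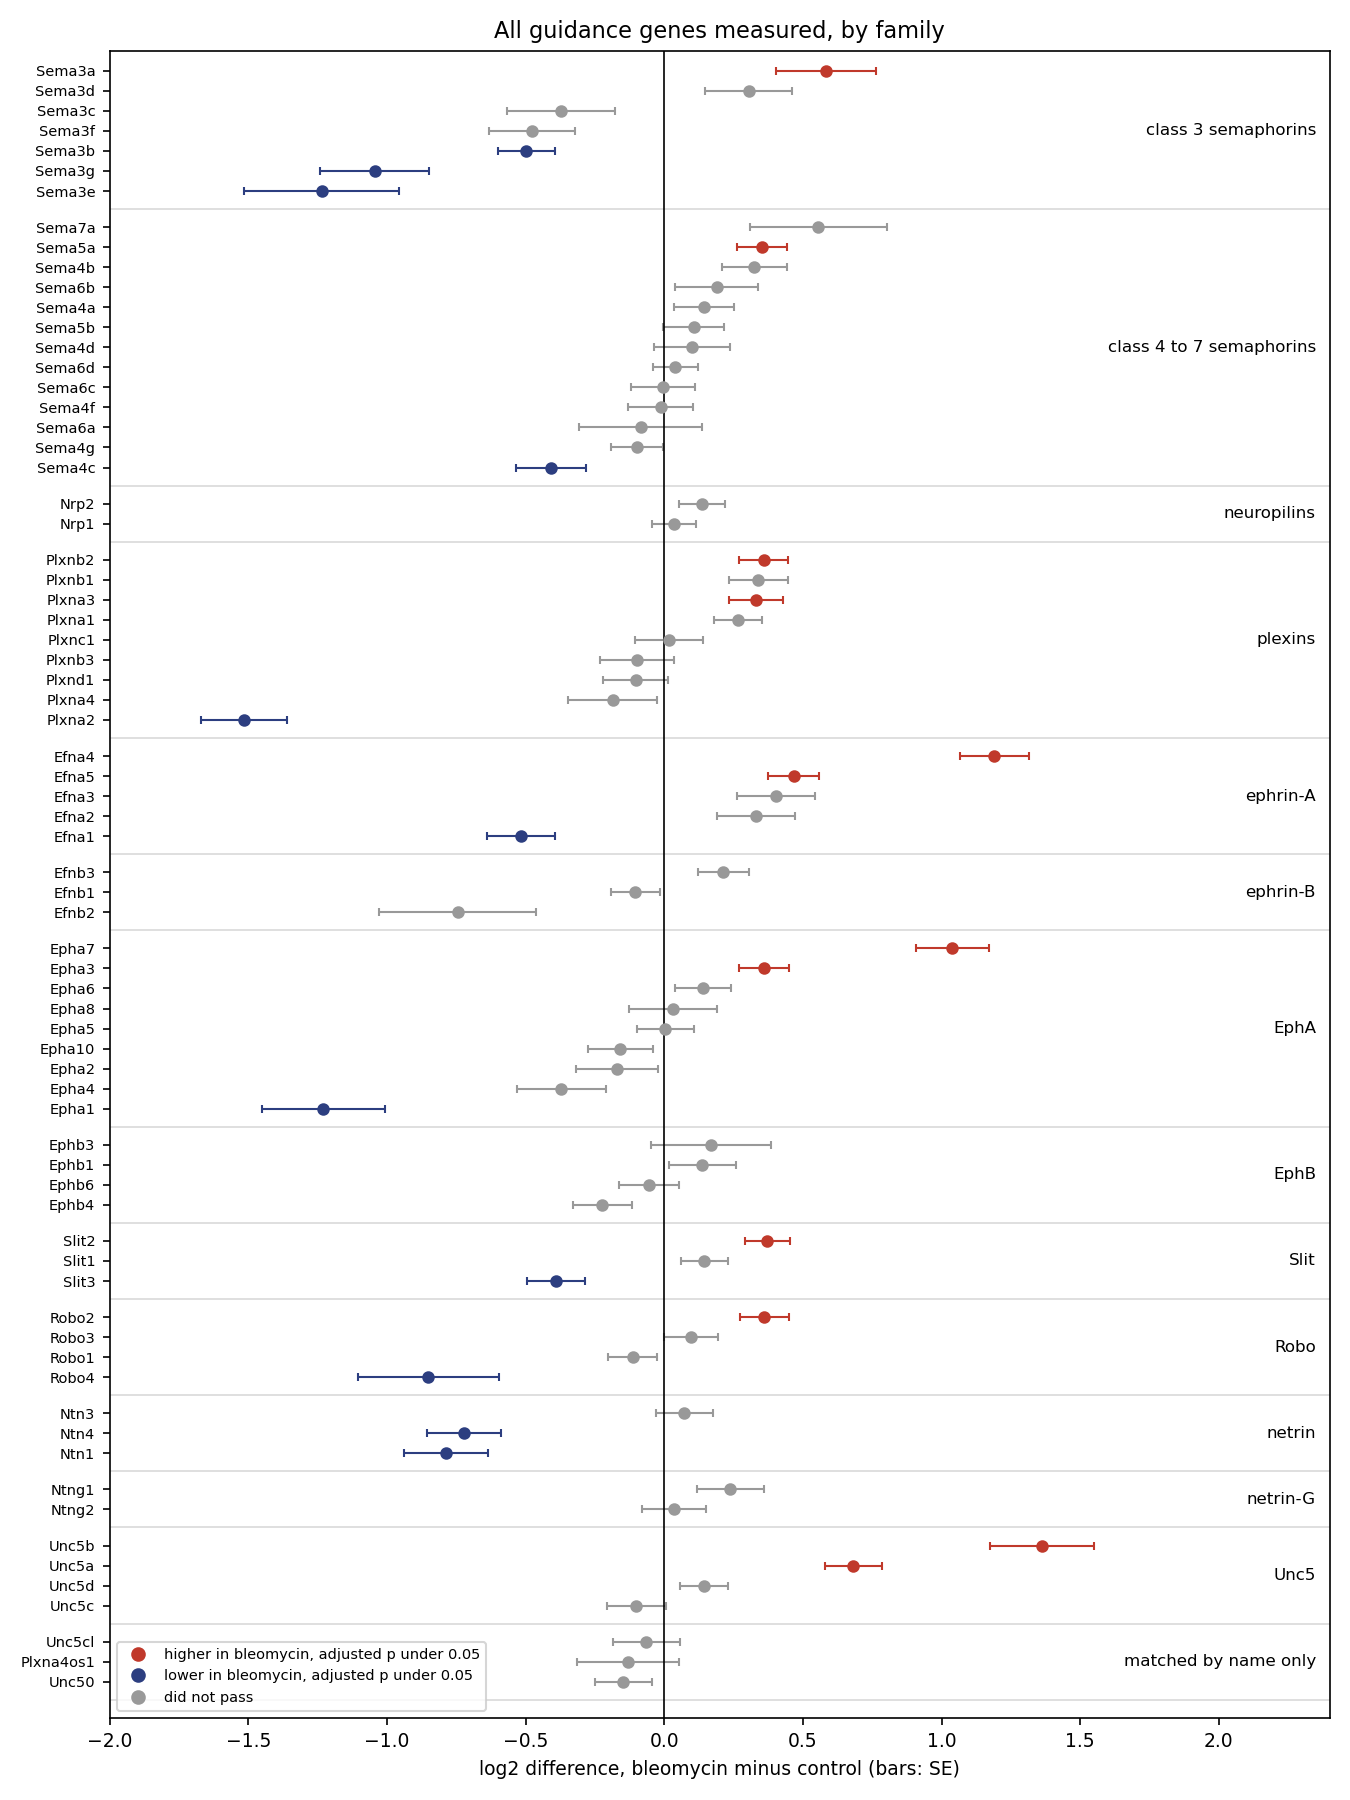
Log2 difference of each of the 71 members, bleomycin minus control, with its standard error, grouped by family; red points were higher and blue points lower by limma, and grey points did not pass. Most families hold members on both sides of 0, with Unc5b highest at 1.36 and Plxna2 lowest at -1.52.

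Unc5b, a netrin receptor that also acts in vessels, had the largest rise. Its level was 7.28, 6.87, 7.62 and 6.65 on the bleomycin arrays, against 5.72, 5.94, 5.62 and 5.69 on the control arrays (log2 intensity, replicates 1 to 4, as in all array values below). The lowest bleomycin array stood above every control array. The difference was 1.36 ± 0.19 (log2, ± SE), or 2.57-fold (limma, adjusted p = 0.000888), and 1.45 without control replicates 1 and 2 (adjusted p = 0.00995). Unc5b is also known from endothelium, whose markers were lower in the bleomycin samples. A list of fibrotic fibroblast markers was chosen with earlier results of these data known, so its rise is no independent support. All 14 of these markers rose, and they averaged 10.72, 10.42, 10.70 and 10.01 on the same bleomycin arrays. As with Unc5b, replicates 1 and 3 were above replicates 2 and 4. Mean levels of the smooth muscle, pericyte, and Schwann cell and nerve markers were also higher on replicates 1 and 3 than on replicates 2 and 4. The full order of the 4 arrays was not the same in all these lists. The part of any of these cell types in the result was not tested.

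Unc5a, a second netrin receptor, was at 7.12, 7.20, 7.12 and 7.19 on bleomycin arrays, against 6.44, 6.38, 6.34 and 6.74 on control arrays. The groups did not overlap, and the bleomycin arrays lay close together. The difference of 0.68 ± 0.10 passed (limma, adjusted p = 0.00144). Unc5c, the brightest of the 4 receptors by its row, was at 8.88, 9.02, 9.02 and 9.21 in bleomycin, against 8.92, 9.17, 9.24 and 9.20 in control samples. Those groups overlapped, and the difference of -0.10 had a 95% interval from -0.34 to 0.13. Unc5d, the fourth receptor, lay at 4.50 in bleomycin and 4.36 in control samples and did not pass.

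Of the 3 netrins, 2 fell. Ntn1, the classical netrin, was at 7.35, 7.91, 7.55 and 8.03 on bleomycin arrays, against 8.69, 8.45, 8.50 and 8.35 on control arrays. No bleomycin array reached the lowest control array, and the difference was -0.79 ± 0.15 (limma, adjusted p = 0.00529). Ntn4, a netrin of basement membranes, was at 8.21, 8.29, 8.29 and 8.40 in bleomycin, against 9.29, 9.17, 8.99 and 8.63 in control samples. It fell by 0.72 ± 0.13 (limma, adjusted p = 0.00456). Among the control arrays Ntn4 was 0.42 higher on replicates 1 and 2. Without them Ntn4 differed by -0.51 (adjusted p = 0.0441) and Ntn1 by -0.71 (adjusted p = 0.0558). Ntn3 and the membrane-anchored netrins Ntng1 and Ntng2, which bind other partners, differed by 0.07, 0.24 and 0.04 and did not pass. Of the other netrin receptors, neogenin (Neo1) differed by -0.18 ± 0.10 and Dcc by 0.08 ± 0.13, and neither passed.

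**Figure D2:**
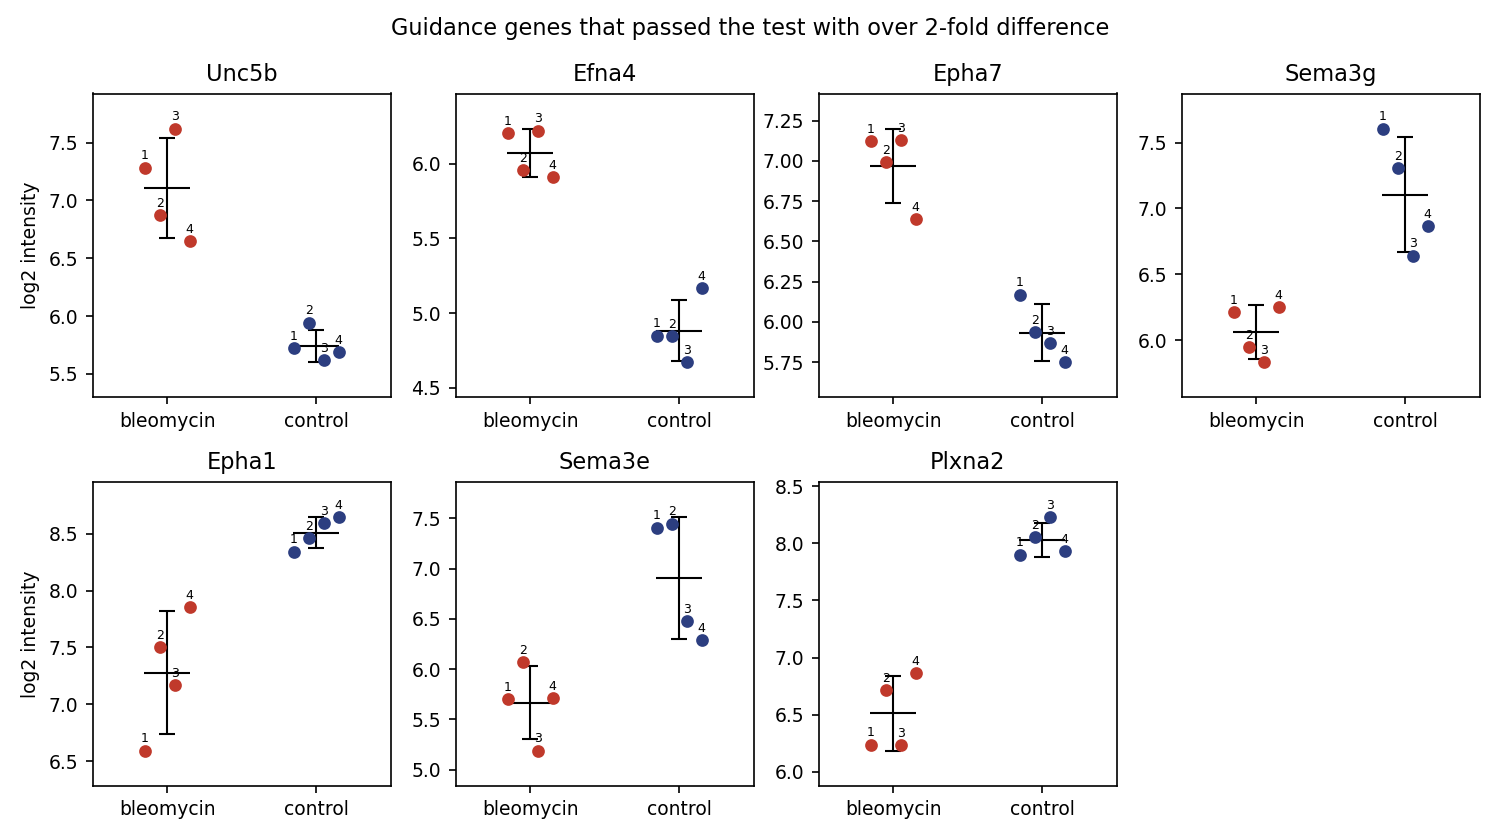
Log2 intensity on each array for the 7 members that passed with a difference of at least 1 log2 unit, numbered by replicate, with bars for the mean and SD (n = 4). In each panel every bleomycin array lies on 1 side of every control array, above it for Unc5b, Efna4 and Epha7 and below it for Sema3g, Epha1, Sema3e and Plxna2.

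Among the ephrin-A ligands, which are held in the membrane by a lipid anchor, 2 of 5 rose and 1 fell. Efna4 was at 6.20, 5.96, 6.22 and 5.91 on bleomycin arrays, against 4.85, 4.84, 4.67 and 5.17 on control arrays. Each bleomycin array was above each control array, by 1.19 ± 0.12 on average, or 2.28-fold (limma, adjusted p = 0.000194). It differed by 1.15 without control replicates 1 and 2. Efna5, also expressed in the nervous system, was at 7.66, 7.73, 7.68 and 7.51 in bleomycin, against 7.18, 7.24, 7.28 and 7.01 in control samples, a difference of 0.47 ± 0.09 (limma, adjusted p = 0.00657). Efna1, which is made by endothelium and epithelium, went the other way. It was at 6.84, 7.01, 6.81 and 6.89 in bleomycin, against 7.74, 7.39, 7.32 and 7.17 in control samples, a difference of -0.52 ± 0.12 (limma, adjusted p = 0.0157). Its call was lost without control replicates 1 and 2 (-0.36, adjusted p = 0.0894). Efna2 and Efna3 differed by 0.33 and 0.40 and did not pass, but did in the pair-blocked fit (adjusted p of 0.0156 and 0.0307).

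Of 9 EphA receptors, which bind the ephrin-A ligands, 2 rose and 1 fell. Epha7 was at 7.12, 6.99, 7.13 and 6.64 on bleomycin arrays, against 6.17, 5.94, 5.87 and 5.75 on control arrays. The groups did not overlap, and bleomycin replicate 4 was the nearest to the controls. The difference was 1.04 ± 0.13, or 2.05-fold (limma, adjusted p = 0.000564). Epha3, the brightest EphA row, was at 9.32, 9.38, 9.38 and 9.23 in bleomycin, against 8.93, 8.87, 8.93 and 9.13 in control samples, and rose by 0.36 ± 0.09 (limma, adjusted p = 0.0199). That call was lost without control replicates 1 and 2 (0.30, adjusted p = 0.153), and in 4 of the 8 fits that left out 1 array.

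Epha1, a receptor found in epithelia, had the second largest fall among the receptors. It was at 6.59, 7.50, 7.17 and 7.86 on bleomycin arrays, against 8.34, 8.46, 8.59 and 8.65 on control arrays. The control arrays were close together and the bleomycin arrays were spread over more than 1 log2 unit. The difference was -1.23 ± 0.22, or 2.34-fold lower (limma, adjusted p = 0.00409), and -1.34 without control replicates 1 and 2 (adjusted p = 0.0267). Within the controls, replicates 1 and 2 differed from replicates 3 and 4 by -0.22. Alveolar and airway epithelial markers were both lower in bleomycin. Markers of alveolar fibroblasts, of which 12 of 13 fell, averaged 10.32, 10.78, 10.48 and 10.98 on the bleomycin arrays, and 11.25, 11.30, 11.44 and 11.45 on the control arrays. The part of any of these cell types in the fall of Epha1 was not tested. The other EphA receptors did not pass. Epha4 differed by -0.37 and was the one among them whose groups did not overlap, and Epha5 and Epha6 lay in both groups below 4.52, the highest median on any array of rows that carry no gene.

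The ephrin-B ligands and EphB receptors, which cross the membrane and bind each other, gave no call in 3 and 4 members. Efnb1, the brightest ephrin-B row, was at 9.40, 9.62, 9.66 and 9.60 on bleomycin arrays, against 9.66, 9.74, 9.71 and 9.59 on control arrays. Its groups overlapped, with a difference of -0.10 and a 95% interval from -0.30 to 0.09. Efnb2, a ligand known as a mark of arterial endothelium, was at 8.23, 8.12, 7.72 and 8.03 in bleomycin, against 9.48, 9.22, 8.16 and 8.22 in control samples. Control replicates 1 and 2 were high, and replicates 3 and 4 were near the bleomycin arrays. The difference of -0.75 ± 0.28 did not pass (limma, adjusted p = 0.101), and it was -0.16 without those 2 arrays. In the pair-blocked fit it passed (adjusted p = 0.0174). Ephb3 was at 7.68, 7.91, 8.39 and 8.25 in bleomycin, against 7.51, 7.56, 8.41 and 8.08 in control samples. In both groups replicates 3 and 4 were the higher ones, and the difference was 0.17 ± 0.22. The differences of the 4 EphB receptors lay between -0.22 and 0.17. Ephb2 had no row that carries it alone and is not among them.

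Among the plexins, the signalling receptors of semaphorins, Plxna2 had the largest fall of all members. It was at 6.24, 6.71, 6.23 and 6.87 on bleomycin arrays, against 7.90, 8.05, 8.23 and 7.93 on control arrays. The groups were separated by over 1 log2 unit. The difference was -1.52 ± 0.16, or 2.86-fold lower (limma, adjusted p = 0.000173). It was -1.57 without control replicates 1 and 2, and those arrays differed from the other controls by -0.10. Plxna2 and Epha7 were the members that passed in all 22 alternative fits.

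Other plexins moved little. Plxnb2, a receptor of class 4 semaphorins and the brightest plexin row, was at 10.23, 10.31, 10.45 and 10.31 on bleomycin arrays, against 9.86, 9.99, 10.08 and 9.94 on control arrays. It rose by 0.36 ± 0.09 (limma, adjusted p = 0.0188). Plxna3 was at 6.47, 6.75, 6.62 and 6.83 in bleomycin, against 6.31, 6.28, 6.37 and 6.38 in control samples, and rose by 0.33 ± 0.10 (limma, adjusted p = 0.0388). Neither passed without control replicates 1 and 2 (adjusted p of 0.125 and 0.202). Plxna3 lost its call in 7 of the 8 fits that left out 1 array, and Plxnb2 in 2. In Plxna1 and Plxnb1 the groups did not overlap either, with differences of 0.27 and 0.34 that did not pass (limma, adjusted p of 0.0573 and 0.0537), but passed in the pair-blocked fit (adjusted p of 0.0475 and 0.0282). Without control replicates 1 and 2 Plxnb1 differed by 0.51 and passed (adjusted p = 0.0183). Its second, dimmer row had the opposite sign over all arrays, at -0.20 (adjusted p = 0.396), so its direction depends on the row. Plxnc1 and Plxnd1, the receptors of Sema7a and Sema3e, differed by 0.02 and -0.10, with 95% intervals from -0.26 to 0.29 and from -0.36 to 0.15.

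The neuropilins, which bind secreted semaphorins and also VEGF, were bright and level. Nrp1 was at 10.91, 11.01, 10.89 and 11.02 on bleomycin arrays, against 10.99, 10.88, 10.93 and 10.88 on control arrays. The groups overlapped, and the difference of 0.04 had a 95% interval from -0.14 to 0.21. Nrp2 differed by 0.14 ± 0.08 and did not pass.

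Of the 7 secreted class 3 semaphorins, 1 rose and 3 fell. Sema3e, which signals through Plxnd1 and acts on vessels, was at 5.70, 6.07, 5.19 and 5.71 on bleomycin arrays, against 7.41, 7.44, 6.48 and 6.28 on control arrays. All control arrays were higher, replicates 1 and 2 most of all. The difference was -1.24 ± 0.28 (limma, adjusted p = 0.0124), and -0.71 without those 2 arrays, where it did not pass (adjusted p = 0.0783). Sema3g, a semaphorin of arterial endothelium, was at 6.21, 5.95, 5.83 and 6.25 in bleomycin, against 7.61, 7.31, 6.64 and 6.86 in control samples. The difference was -1.04 ± 0.20 (limma, adjusted p = 0.00495), and -0.69 without those arrays (adjusted p = 0.0263). Both genes were uneven among the controls in the same way as the endothelial markers, and the part of endothelial RNA in these differences was not tested.

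Sema3b, known as a candidate tumour suppressor, did not share that unevenness. It was at 6.64, 6.69, 7.05 and 6.91 on bleomycin arrays, against 7.26, 7.36, 7.33 and 7.32 on control arrays. The control arrays lay close together and above every bleomycin array. The difference was -0.50 ± 0.10 (limma, adjusted p = 0.0082), and -0.51 without control replicates 1 and 2 (adjusted p = 0.0581). Sema3a, the repellent of sensory and sympathetic nerve fibres, rose. It was at 6.03, 5.56, 5.94 and 5.32 in bleomycin, against 5.41, 5.27, 4.78 and 5.06 in control samples. Bleomycin replicate 4 lay below control replicate 1, so the groups overlapped. The difference of 0.58 ± 0.18 passed narrowly (limma, adjusted p = 0.0489) and lost its call in 6 of the 8 fits that left out 1 array.

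Sema3c, the brightest class 3 row, was at 9.25, 9.05, 9.09 and 9.20 on bleomycin arrays, against 9.85, 9.98, 9.17 and 9.07 on control arrays. Control replicates 3 and 4 fell within the bleomycin range. The difference of -0.37 ± 0.19 did not pass (limma, adjusted p = 0.229), and it was 0.02 without control replicates 1 and 2. Sema3f differed by -0.48 ± 0.15 (limma, adjusted p = 0.0594), and by -0.19 without them, and it passed in the pair-blocked fit (adjusted p = 0.0273). Sema3d differed by 0.30 and did not pass.

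Among the 13 membrane-bound semaphorins of classes 4 to 7, 1 rose and 1 fell. Sema5a, which carries thrombospondin repeats, was at 9.38, 9.23, 9.19 and 9.05 on bleomycin arrays, against 8.80, 8.85, 8.90 and 8.90 on control arrays. It rose by 0.35 ± 0.09 with no overlap (limma, adjusted p = 0.0236), and by 0.32 with no call without control replicates 1 and 2 (adjusted p = 0.149). Its call was lost in 5 of the 8 fits that left out 1 array. Sema4c, a ligand of plexin B2, was at 7.57, 7.60, 7.86 and 7.65 in bleomycin, against 7.77, 8.10, 8.32 and 8.12 in control samples. The groups overlapped at bleomycin replicate 3 and control replicate 1, and the fall of 0.41 ± 0.12 passed narrowly (limma, adjusted p = 0.0473). That call was lost in 6 of the 8 fits that left out 1 array. The remaining members differed by between -0.10 and 0.55 without a call. Sema4f and Sema4g lay below the level of rows without a gene in both groups.

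Sema7a, which is anchored in the membrane by a lipid and binds beta-1 integrin and Plxnc1, gained a call when 2 control arrays were left out. It was at 7.86, 7.41, 7.85 and 7.46 on bleomycin arrays, against 7.53, 7.63, 6.53 and 6.66 on control arrays. Control replicates 1 and 2 lay inside the bleomycin range and replicates 3 and 4 well below it. Over all arrays the difference was 0.55 ± 0.25 and did not pass (limma, adjusted p = 0.158). Without control replicates 1 and 2 it was 1.04 and passed (adjusted p = 0.00717). Within replicates 1 and 2 of both groups it was 0.05 (adjusted p = 0.885), and within replicates 3 and 4 it was 1.06 (adjusted p = 0.0391).

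**Figure D3:**
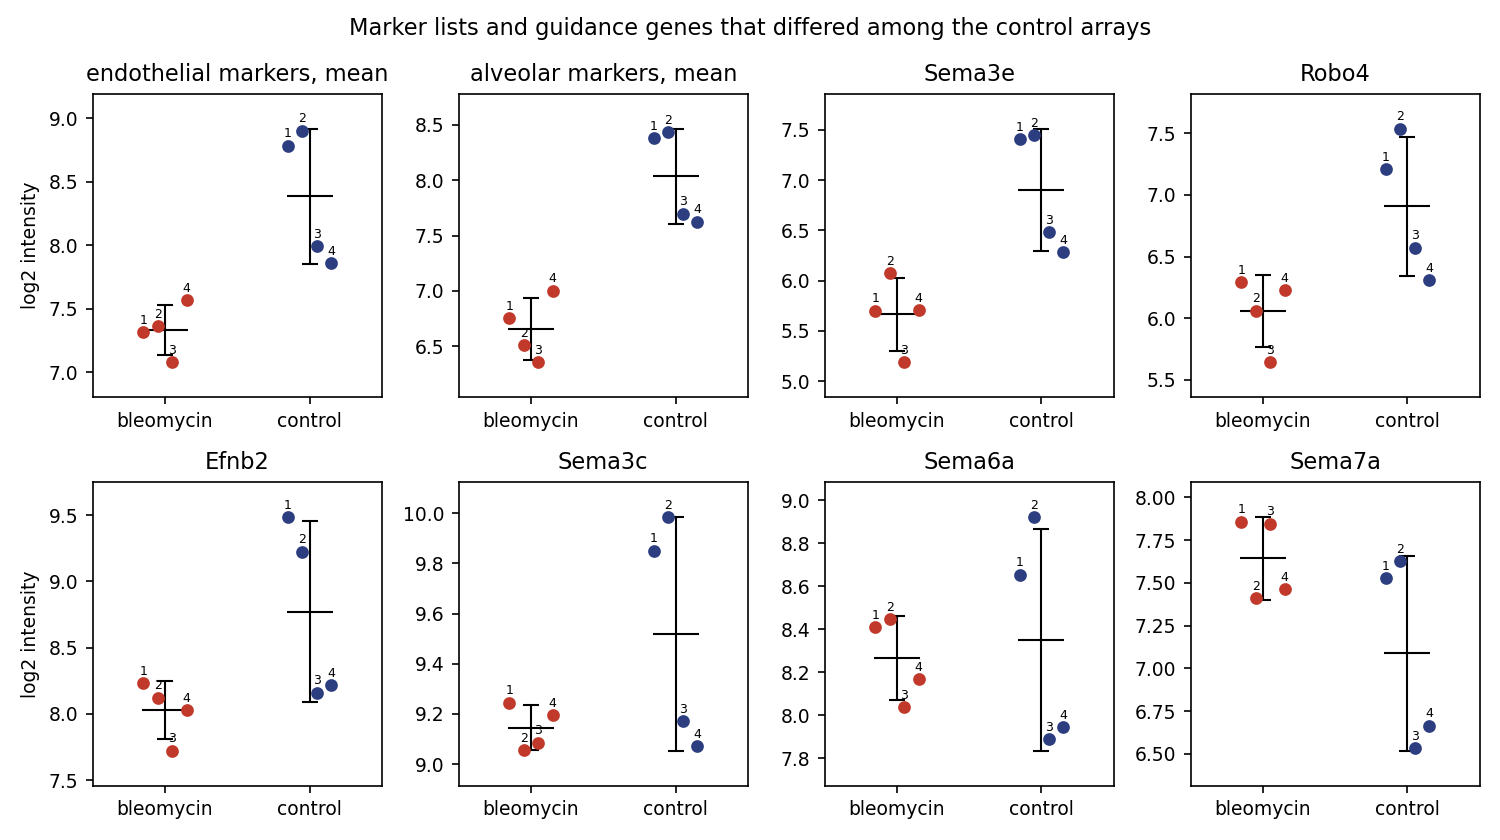
Mean log2 level of 24 endothelial and 20 alveolar epithelial markers, and log2 intensity of 6 guidance genes, on each array, numbered by replicate, with bars for the mean and SD (n = 4). Control replicates 1 and 2 lie above control replicates 3 and 4 in every panel, and for Efnb2, Sema3c, Sema6a and Sema7a only 1 of these 2 pairs, or neither, lies within the range of the bleomycin arrays.

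Unevenness among the controls was more frequent among guidance genes than among all genes, by a split chosen from these same arrays. The members are brighter than all genes (median level 6.65 against 5.51), and no share was taken among the brighter genes alone. On control replicates 1 and 2, 10 of 71 members (14.1%) were higher by at least 0.5 log2 units than on replicates 3 and 4, against 2.82% of all genes. These were Efnb2, Sema3e, Sema7a, Robo4, Sema6a, Sema3c, Sema3g, Sema3f, Epha4 and Epha2, with Efnb2 highest at 1.17. Only Ephb3 was lower by that much, at -0.71, or 1.41% of members against 1.44% of all genes. Sema6a, the ligand of Plxna2 and Plxna4, showed how far this reaches. It was at 8.41, 8.45, 8.04 and 8.17 on bleomycin arrays, against 8.65, 8.92, 7.89 and 7.94 on control arrays. The bleomycin arrays lay between the 2 pairs of controls, and the difference was -0.09 over all arrays and 0.35 without control replicates 1 and 2, with no call in either case.

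**Figure D4:**
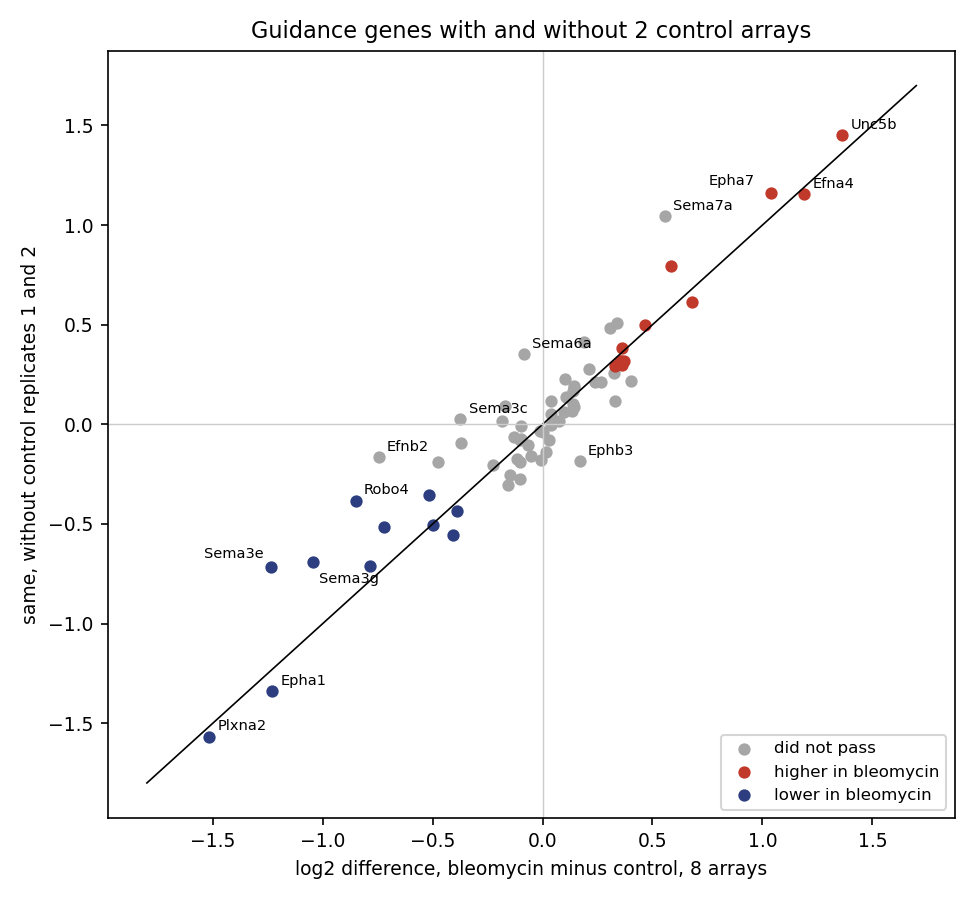
Log2 difference of each member over all 8 arrays (horizontal) against the same without control replicates 1 and 2 (vertical), with the line of equality; colours give the call over all 8 arrays. Plxna2, Epha1, Unc5b, Efna4 and Epha7 lie near the line, and Sema3e, Sema3g, Robo4, Efnb2 and Sema7a lie above it.

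Slits and Robos split by member. Slit2 was at 11.22, 11.17, 11.10 and 11.23 on bleomycin arrays, against 10.70, 10.80, 10.87 and 10.86 on control arrays, and rose by 0.37 ± 0.08 (limma, adjusted p = 0.0105). Slit3 was at 10.50, 10.80, 10.89 and 10.90 in bleomycin, against 11.12, 11.13, 11.25 and 11.16 in control samples, and fell by 0.39 ± 0.11 (limma, adjusted p = 0.0276). The groups overlapped in neither of these 2 ligands, which moved opposite ways by similar amounts. Without control replicates 1 and 2 they differed by 0.32 and -0.43, and neither passed (adjusted p of 0.0974 and 0.0946). Slit3 lost its call in 5 of the 8 fits that left out 1 array, and Slit2 in none. Slit1 differed by 0.14 and did not pass.

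Robo2, a receptor of the Slits, was at 10.33, 10.55, 10.44 and 10.60 on bleomycin arrays, against 10.11, 10.16, 10.12 and 10.07 on control arrays. It rose by 0.36 ± 0.09 (limma, adjusted p = 0.0176), and by 0.38 with no call without control replicates 1 and 2 (adjusted p = 0.0814). Robo4, a receptor of endothelium, was at 6.29, 6.06, 5.64 and 6.23 in bleomycin, against 7.21, 7.54, 6.57 and 6.31 in control samples. Control replicate 4 was barely above the highest bleomycin array, and replicates 1 and 2 were far above it. The difference of -0.85 ± 0.25 passed (limma, adjusted p = 0.0428) but was -0.38 without control replicates 1 and 2 (adjusted p = 0.255), and its call was lost in 6 of the 8 fits that left out 1 array. Robo1 differed by -0.11 and Robo3, below the level of rows without a gene, by 0.10, without a call.

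Promoter sequence is shown for the 3 members with the largest rises and the one with the largest fall, from the RefSeq table of GRCm38.p6. Each run is the 250 bases before the annotated start site, 5′ to 3′ on the gene's strand. Capitals mark the GC box GGGCGG, a site of Sp and KLF factors, and CAGAC, the core bound by SMAD proteins, each searched on both strands. The windows are chr10:60831582-60831831 on the minus strand for Unc5b, chr3:89338029-89338278 on the minus strand for Efna4, chr4:28812881-28813130 on the plus strand for Epha7 and chr1:194619579-194619828 on the plus strand for Plxna2.
Unc5b: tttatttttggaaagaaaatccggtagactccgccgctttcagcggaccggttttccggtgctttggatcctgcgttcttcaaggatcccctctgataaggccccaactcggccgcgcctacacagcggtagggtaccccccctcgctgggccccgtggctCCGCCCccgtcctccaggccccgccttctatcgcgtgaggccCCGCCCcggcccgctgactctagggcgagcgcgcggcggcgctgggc
Efna4: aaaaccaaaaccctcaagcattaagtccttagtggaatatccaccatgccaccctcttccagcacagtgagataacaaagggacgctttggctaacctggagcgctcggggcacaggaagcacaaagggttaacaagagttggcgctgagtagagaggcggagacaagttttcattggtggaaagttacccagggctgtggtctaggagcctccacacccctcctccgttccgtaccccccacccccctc
Epha7: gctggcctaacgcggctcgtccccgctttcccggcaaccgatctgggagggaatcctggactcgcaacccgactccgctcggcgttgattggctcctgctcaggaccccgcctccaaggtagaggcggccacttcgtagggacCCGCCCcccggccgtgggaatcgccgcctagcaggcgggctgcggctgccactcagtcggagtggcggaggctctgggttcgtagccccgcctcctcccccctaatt
Plxna2: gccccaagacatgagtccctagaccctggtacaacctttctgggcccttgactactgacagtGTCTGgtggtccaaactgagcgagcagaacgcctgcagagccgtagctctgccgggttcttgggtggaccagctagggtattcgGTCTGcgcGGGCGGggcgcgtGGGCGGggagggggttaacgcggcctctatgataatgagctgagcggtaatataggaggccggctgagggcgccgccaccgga
The Unc5b window holds 27 CpG dinucleotides, that of Epha7 25, that of Plxna2 18 and that of Efna4 7. CAGAC occurs 2 times before Plxna2 and in none of the other 3 windows. GC boxes number 2 before Unc5b, 1 before Epha7, 2 before Plxna2 and 0 before Efna4. Windows were at hand for 61 members, and some genes have several. A gene was counted where any of its windows held the motif. CAGAC was in 8 of the 9 lower, 4 of the 12 higher and 22 of the 40 uncalled members. Over all 27025 genes with a window, a set not limited to the genes tested, it was in 45.8%. The GC box was in 8 of the 9 lower, 8 of the 12 higher and 31 of the 40 uncalled members, and in 35.4% of those 27025 genes. The motifs were chosen after the differences were seen, no test was made, and a match shows no binding.

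Partners of the guidance receptors moved both ways as well. Of 28 co-receptors and further cues 7 rose and 4 fell, or 39.3%, against 17.4% of all genes and 37.2% of the brighter 50%. The last share was adjusted over the brighter genes alone and is not a like measure. Nrcam, a neural adhesion molecule that joins neuropilin complexes, rose by 2.05 ± 0.10, and Sdc3, a heparan sulfate proteoglycan, by 1.37 ± 0.17. The latrophilin Adgrl1 rose by 0.78 and the glypican Gpc1 by 0.71. Kdr, the VEGF receptor that pairs with neuropilins, differed by -1.42 ± 0.27 and Vegfa, its ligand, by -1.0 ± 0.16. Kdr is also on the endothelial list, and without control replicates 1 and 2 it differed by -0.87 and Vegfa by -1.20. Met, a receptor that associates with B-type plexins, and Lrig2, a membrane protein that regulates neogenin, differed by -0.70 and -0.34. All 8 passed by limma with an adjusted p no higher than 0.0336.

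Of 56 intracellular effectors 13 rose and 6 fell, or 33.9%, against 17.4% of all genes and 37.2% of the brighter 50%. Both lists are brighter than the average gene, and the last share was adjusted over the brighter genes alone. In that fit, 20 genes of both lists together were higher and 15 lower. Chn1, which encodes a Rac-inactivating protein that acts below Eph receptors, rose by 1.24 ± 0.13. Mical2, an actin-oxidising enzyme of the family that acts below plexins, rose by 1.10 ± 0.19. Srgap3, of a family that binds Robo receptors, rose by 0.75 and Rnd3 by 0.74. The falls included the exchange factor gene Arhgef15, by 0.83 ± 0.19, the actin-binding Ablim3 by 0.80, the adaptor gene Sh2d3c by 0.73 and the kinase gene Fyn by 0.72. All 8 passed by limma with an adjusted p no higher than 0.0182. Without control replicates 1 and 2 Arhgef15, Sh2d3c and Ablim3 did not pass (adjusted p of 0.111, 0.149 and 0.0561), and neither did Gpc1, Met and Lrig2 (adjusted p of 0.0801, 0.179 and 0.139). Arhgef15 is known from endothelium. Of all 30 calls in both lists 17 were kept there, and all 30 kept their direction.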

How the data were processed

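Per the labels' protocols, biotinylated cRNA was made from 100 ng of total RNA. The deposited table gives 1 value per probe set and array, taken as log2 intensities because they span 0.24 to 13.58. How the authors corrected background, summarised probes and normalized is not given in the sources used here. Sample titles gave the group and replicate of each array. Of 41345 rows, 23521 carried 1 gene in the probe annotation, 1814 several and 16010 none. The brightest row stood for each of 22180 genes, and 3 members (Plxna1, Plxnb1, Ephb1) had a second, dimmer row, none of which passed; that of Plxnb1 had the opposite sign. Array medians over tested genes lay within 0.071, and values were used as deposited. Medians of rows without a gene did not overlap, at 4.20 to 4.35 in bleomycin and 4.44 to 4.52 in control samples, nor did those of all rows, at 4.89 to 4.94 and 4.96 to 5.00. The level of rows without a gene is their median on the array where it was highest, 4.52, a control array; 8 members lay at or below it in both groups, and none was filtered.

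The contrast was fitted over all genes with limma 3.58.1 (lmFit, eBayes; R 4.3.3) and tested two-sided with Benjamini-Hochberg adjustment and a threshold of 0.05; the procedure was also tested on simulated data. Array values are given for members that passed with an absolute difference of at least 1, for the brightest of each family, for the other passing members, and for Efnb2, Sema6a and Sema7a, added after their values were seen. From each of the lists of partners and effectors, the 4 passing genes with the largest differences in each direction are named. The members and lists were chosen with earlier results of these data known. The alternatives were blocks, normalization, filters, probe set choice, variance model, array weights, thresholds, arrays left out and adjustment over all rows.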

Additional observations from a re-analysis of the deposited data

Results flagged for a closer look

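Within a group of 4 arrays, 1 array stood far from the other 3, by Dixon's criterion at 95%, in 5 of the 142 combinations of member and group. Chance alone flags about 1 in 20. None of the 5 is in a member that passed the test between the groups. Ephb6 was at 5.72 on bleomycin replicate 2, below 6.00 to 6.02 on the other bleomycin arrays. Sema6b was at 5.57 on bleomycin replicate 2, below 5.97 to 6.02 on the others. Ntn3 was at 6.48 on bleomycin replicate 3, above 6.16 to 6.21 on the others. Efnb3 was at 5.19 on control replicate 2, above 4.92 to 4.93 on the other control arrays. Plxna1 was at 9.38 on control replicate 3, above 9.18 to 9.21 on the others.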

How the results depend on the processing

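Against 12 higher and 11 lower guidance genes, leaving out 1 array at a time gave 7 to 11 higher and 8 to 10 lower. The 7 came without bleomycin replicate 3, where Epha3, Plxna3, Plxnb2, Sema3a and Sema5a lost their higher calls. Robo4, a lower gene, lost its call there too. In all, 8 called members lost their call in at least 1 such fit and 15 in none. For the partners and effectors, 20 higher and 10 lower became 15 to 19 and 8 to 10. Without control replicates 1 and 2, 8 guidance genes were higher and 5 lower, and 14 and 5 partners and effectors. Within replicates 1 and 2 alone, 4 guidance genes were higher and 10 lower, and 7 and 7 partners and effectors. Within replicates 3 and 4 alone, 2 guidance genes were higher and 1 lower, and 5 and 1 partners and effectors; these fits have 2 arrays per group. At adjusted p under 0.01, 5 guidance genes were higher and 6 lower, and 13 and 6 partners and effectors. At adjusted p under 0.05 with a difference of at least 0.5, 5 guidance genes were higher and 8 lower, and 12 and 9 partners and effectors. The called members kept their direction in every alternative in which they were tested. With the replicate number as a block (replicate block), 11 guidance genes were higher and 12 lower, and 20 and 10 partners and effectors. Same-numbered arrays of the groups deviated together weakly, with correlations over genes of 0.129, 0.0631, 0.114 and 0.0647, so the numbers were not taken to pair the samples. Not every array correlated best with its own number. In the pair-blocked fit 16 guidance genes were higher and 13 lower, and 21 and 11 partners and effectors; none of the 23 calls was lost, and Efna2, Efna3, Efnb2, Plxna1, Plxnb1 and Sema3f were gained. Quantile normalization gave 16 higher and 9 lower.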
